A study of Homo sapiens with 38 samples.

Results

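Intronless protein-coding genes are those whose annotated transcripts all consist of 1 exon, so their RNA leaves the gene without being spliced. They were taken here as every protein-coding gene for which all transcripts quantified in these libraries have 1 exon in GENCODE release 44, after the replication-dependent histone, protocadherin and mitochondrial genes had been set aside. The rule gave 885 genes of 58425 with a matched transcript, and it used no measured value. Of the 885, 873 have a single quantified transcript.

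RNA was measured in nuclear and cytoplasmic fractions of HCT116, an established human colorectal carcinoma line, by strand-specific sequencing of total RNA depleted of ribosomal RNA, which keeps RNA that has not been spliced. The genotypes were wild type, AGO1-/-, AGO2-/-, AGO1-/-, AGO2-/- (AGO1/2 below) and AGO1-/-, AGO2-/-,AGO3-/- (AGO1/2/3 below), each with 3 libraries per fraction and 30 libraries in all. The AGO genes encode Argonaute proteins, which carry microRNAs to their target RNAs. Each knockout is 1 CRISPR-edited line, and the wild-type cultures were at passages 27 to 29 while the knockout cultures were at passages 6 to 14, so genotype, clone and passage cannot be told apart. The p-values below measure the spread between passages of 1 line.

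Most mRNAs are exported from the nucleus with the help of proteins deposited during splicing. Intronless genes lack that step, and their mRNAs are known to reach the export machinery through other adaptors and through sequence elements of their own. The class holds many regulators that are made quickly (JUNB, RHOB, IER5), large receptor families (olfactory and bitter taste receptors, Frizzled proteins), and retrocopies, which arose when the mRNA of a gene with introns was copied back into the genome. Many of them lie inside an intron of another, longer gene, the host.

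Position in the genome turned out to separate these genes, so it is used throughout. Of the 885, 101 lie inside an intron of another gene on the same strand and share no exon with it. Another 112 lie in an intron of a gene on the opposite strand, 45 share exonic sequence with another gene on the same strand, and 627 lie outside any such intron. The 101 nested genes are the ones whose sequence is also present in the unspliced RNA of the host. The quantification rested on annotated transcripts, so a read from an unspliced host intron that crosses a nested gene was counted for the nested gene, and its origin cannot be told apart from these values.

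The first 90 coding bases of 7 genes are shown as examples of genes described below. They come from 3 intron-nested genes whose RNA was among the most nuclear, then from 4 genes outside introns whose RNA was among the most cytoplasmic. They are too few to show how base composition differs between such genes. They were read from the hg38 genome with GENCODE release 44 coding starts, 5′ to 3′ on the coding strand, with every G and C in capitals. The windows are chr12:11134155-11134244 (minus strand, TAS2R30), chr12:11022482-11022571 (minus, TAS2R19), chr1:174448112-174448201 (plus, GPR52), chr6:144095408-144095497 (minus, SF3B5), chr11:65890784-65890873 (plus, CCDC85B), chr7:73769960-73770049 (minus, CLDN3) and chr3:45225938-45226027 (minus, TMEM158).
TAS2R30: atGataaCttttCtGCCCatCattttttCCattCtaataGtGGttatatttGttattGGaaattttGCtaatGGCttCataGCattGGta
TAS2R19: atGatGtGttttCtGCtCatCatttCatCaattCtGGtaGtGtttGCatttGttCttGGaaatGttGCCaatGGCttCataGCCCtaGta
GPR52: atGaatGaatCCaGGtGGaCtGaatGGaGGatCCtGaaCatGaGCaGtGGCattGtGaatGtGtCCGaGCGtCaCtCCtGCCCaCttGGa
SF3B5: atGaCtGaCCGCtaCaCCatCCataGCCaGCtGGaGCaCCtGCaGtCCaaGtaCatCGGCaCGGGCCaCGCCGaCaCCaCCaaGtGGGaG
CCDC85B: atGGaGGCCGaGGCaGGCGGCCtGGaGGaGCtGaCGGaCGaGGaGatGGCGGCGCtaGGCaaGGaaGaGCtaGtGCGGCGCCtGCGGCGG
CLDN3: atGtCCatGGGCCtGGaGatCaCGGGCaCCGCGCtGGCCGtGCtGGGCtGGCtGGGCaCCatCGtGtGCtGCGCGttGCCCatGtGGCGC
TMEM158: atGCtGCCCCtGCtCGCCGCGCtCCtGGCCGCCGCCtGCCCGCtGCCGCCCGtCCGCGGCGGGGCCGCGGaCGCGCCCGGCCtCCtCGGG
Over the whole coding sequence the G and C content was 40.1% in TAS2R30, 40.2% in TAS2R19 and 44.1% in GPR52. It was 57.8% in SF3B5, 71.9% in CCDC85B, 68.03% in CLDN3 and 77.4% in TMEM158.

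Totals over all quantified transcripts ranged from 20431557 to 26536692 reads in the nuclear and 39476205 to 43281746 in the cytoplasmic wild-type libraries. In the knockout libraries they ranged from 31252459 to 54097984 and from 66451720 to 79731793, so the wild-type libraries were shallower throughout. MALAT1 and NEAT1, nuclear long noncoding RNAs, had log2 nuclear over cytoplasmic ratios of 3.83 and 3.89 in wild type. GAPDH, a cytoplasmic mRNA, had one of -1.20. ACTB, a second mRNA set as a cytoplasmic marker, was instead called nuclear at 0.67 (adjusted p = 0.000195, edgeR), so the mRNA markers disagreed. AGO1 RNA was at 10.7 to 14.4 TPM in the cytoplasmic wild-type libraries and at 0.807 to 1.02 TPM in those of the 3 lines with an AGO1 deletion. AGO2 RNA was at 31.1 to 39.8 TPM in wild type and at 16.6 to 29.2 TPM in the 3 lines with an AGO2 deletion, and AGO3 RNA at 6.62 to 9.53 against 8.02 to 9.33 TPM in AGO1/2/3. On the count scale, however, cytoplasmic AGO2 RNA changed by -0.67 in AGO2, by 0.31 in AGO1/2 (adjusted p = 0.00266, edgeR) and by 0.11 in AGO1/2/3 (adjusted p = 0.264). The RNA level therefore did not check the AGO2 label of AGO1/2 and AGO1/2/3 or the AGO3 label. The epithelial markers EPCAM, KRT8, KRT18, CDH1 and CEACAM5 summed to 635 to 2239 TPM (CEACAM5 was near 0), while markers of leukocytes, fibroblasts, endothelium and mesenchyme summed to 1.95 to 27.5 TPM.

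Only a minority of the intronless genes was measurable in these cells. No library held a read of 392 of them. A further filter on low counts left 263 in at least 1 of the fits (259 over all 30 libraries, 248 in the nuclear and 223 in the cytoplasmic libraries). The 622 genes that entered none included 190 of 201 olfactory receptors, 86 of 90 keratin-associated proteins and 15 of 16 type I interferons. A mean of 1 TPM (a level per transcript length, scaled to a common sum per library) was reached by 131 genes and 10 TPM by 26. All 885 together held 0.304% to 0.502% of the reads of a library.

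The level was concentrated in a few genes. HSPA1B, which encodes an inducible HSP70 chaperone, had the highest mean (139.6 TPM over the 30 libraries), but 85.3% of its transcript lies in near-identical copy of HSPA1A, so its reads are uncertain. PCBP1, a poly(C)-binding regulator of mRNA, followed with 93.4 TPM, SFN, the 14-3-3 sigma protein, with 83.1 TPM, SF3B5, a subunit of the U2 spliceosomal particle, with 59.4 TPM, and RHOB, a small GTPase, with 44.5 TPM. RRS1 and UTP3, which act in ribosome assembly, HEXIM1, an inhibitor of the elongation kinase P-TEFb, TSPYL1, JUNB, SOX4 and RRAGA, a GTPase of the mTORC1 pathway, lay between 17.0 and 24.9 TPM. None of these 12 lies in a same-strand intron, though HSPA1B and RRS1 overlap another gene's exon.

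In wild-type cells intronless genes were as a class neither nuclear nor cytoplasmic. Relative to all genes, 95 of the 259 were higher in the nuclear libraries and 98 were higher in the cytoplasmic ones (edgeR quasi-likelihood test, Benjamini-Hochberg adjusted p of at most 0.05). The share of all 20104 genes tested that was called was 39.6% in the nuclear and 37.3% in the cytoplasmic direction, and 76.8% in either, so the counts of intronless genes (36.7% and 37.8%) were close to the background. The median log2 ratio was -0.03 for intronless genes, 0.04 for all genes and -0.28 for the 13607 protein-coding genes with introns. The spread was wide, however. A log2 ratio of 2 or more, a nuclear excess of at least 4-fold, was reached by 24.7% of intronless genes and 5.89% of protein-coding genes with introns. Genes at a lower level tended to have a higher ratio in both classes (Spearman correlation of ratio and mean TPM -0.34 and -0.37). The classes were not matched for level.

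The position of the gene divided this range. Of the 48 tested genes nested in a same-strand intron, 36 were called nuclear and 1 cytoplasmic, with a median log2 ratio of 4.33. Of the 172 genes outside introns, 45 were called nuclear and 86 cytoplasmic, with a median of -0.45. The 17 genes in an opposite-strand intron, whose host RNA does not carry their sequence, had 3 nuclear and 7 cytoplasmic calls and a median of -0.66. The 22 genes with a same-strand exon overlap stood between, with 11 nuclear and 4 cytoplasmic calls and a median of 0.29. Across the alternatives the median of the nested genes lay between 0.853 and 4.54, lowest with limma on log2(TPM + 1). That of the genes outside introns lay between -0.53 and 0.092, so its sign depends on the processing.

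A gene can pass the count filter through its nuclear libraries alone, which favours nuclear genes. Among the 28 nested genes that passed in both fractions separately, 18 were called nuclear and 1 cytoplasmic (median 2.46), and among the 148 such genes outside introns, 25 and 85 (median -0.58). Without the bitter taste receptors among the nested genes, 25 of 37 were nuclear and 1 cytoplasmic (median 3.23). At a mean of 1 TPM or more, 19 of 24 nested genes were nuclear with a median of 4.43, against 11 of 88 outside introns with a median of -0.65. With limma on log2(TPM + 0.1), which changes the test, the pseudocount and the scaling together, the median of all genes was 0.58 and the 259 split into 128 nuclear and 53 cytoplasmic calls. The nested genes then had 39 nuclear and 1 cytoplasmic calls and those outside introns 69 and 45.

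**Figure D1:**
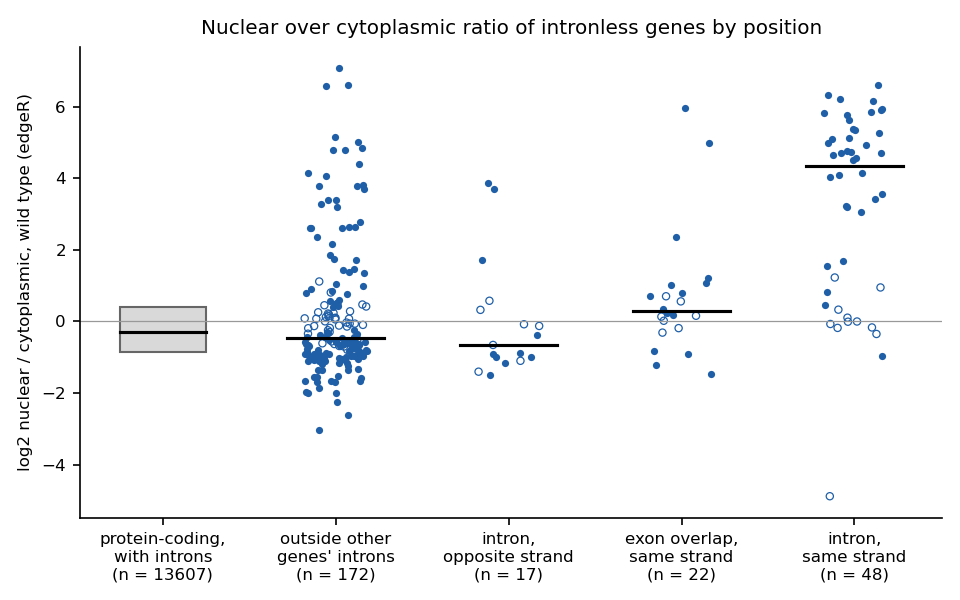
Log2 nuclear over cytoplasmic ratio in wild-type cells (vertical axis) of each tested intronless gene, by position. Filled points passed the test, open points did not, bars are medians, and the grey box gives the quartiles of protein-coding genes with introns. The median of the 48 genes in a same-strand intron lay at 4.33 and that of the 172 genes outside introns at -0.45.

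The bitter taste receptors, G protein-coupled receptors best known from taste cells, were the most nuclear family. All 14 that were tested were called nuclear, against 39.6% of all genes, and 8 of the 22 receptors entered no fit. A receptor at a low level can pass the filter through its nuclear libraries alone, so the filter itself favours such a count. TAS2R30 lies at chr12:11132958-11134644 in an intron of PRH1, a salivary proline-rich protein gene. It had 23.9, 22.3 and 21.0 CPM (read counts scaled for library size, here over all 30 libraries) in the nuclear wild-type libraries and 0.228, 0.529 and 0.133 in the cytoplasmic ones. The log2 ratio was 6.22 ± 0.26 (SE, adjusted p = 5.2e-17, edgeR). TAS2R19, in another stretch of PRH1, had 7.29, 8.26 and 6.97 against 0.0569, 0.185 and 0.0265 CPM, a log2 ratio of 6.34 ± 0.35. The cytoplasmic libraries held 7 reads of it or fewer each, so the size of the ratio is less certain than its direction. TAS2R10, TAS2R46 and TAS2R20 had log2 ratios between 5.91 and 6.16. TAS2R10 had 3, 0 and 0 cytoplasmic reads, and its fitted ratio depends on the prior count.

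The tested olfactory receptors were called nuclear as well (11 of 11, against 39.6% of all genes), under the same filter and with 190 of 201 in no fit. OR51I1 and OR51B2, both in introns of OR51B5 on chromosome 11, were among those with the highest level. OR51I1 had 69.9, 62.2 and 33.5 CPM in the nuclear and 2.65, 2.96 and 0.742 in the cytoplasmic wild-type libraries. The log2 ratio was 4.71 ± 0.35 for OR51I1 and 3.23 ± 0.18 for OR51B2. GPR52, an orphan receptor in an intron of RABGAP1L, had a log2 ratio of 5.84 ± 0.30, and EID3, a subunit of the SMC5/6 complex that lies in an intron of TXNRD1, one of 5.34 ± 0.19.

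BLID, a gene for a cell death inducer whose exon overlaps the noncoding RNA MIR100HG, was the only gene among the 6 most nuclear that was not a bitter taste receptor. Its wild-type libraries held 27.5, 27.0 and 25.6 nuclear and 0.399, 0.503 and 0.371 cytoplasmic CPM (log2 ratio 5.97 ± 0.24). Because of the overlap its reads cannot be assigned to BLID alone.

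At the cytoplasmic end stood small, G and C rich genes outside introns. SF3B5 had 19.5, 19.6 and 19.8 CPM in the nuclear and 69.0, 66.4 and 55.5 in the cytoplasmic wild-type libraries, a log2 ratio of -1.70 ± 0.08. CLDN3, a tight junction claudin, had 1.38, 1.51 and 2.22 against 5.84, 5.80 and 8.30 (-1.97 ± 0.22). TMEM158, a membrane protein induced by Ras signalling, had 2.71, 1.91 and 4.86 against 10.2, 9.03 and 18.2 (-1.99 ± 0.24). In each of them every cytoplasmic library lay above every nuclear library. UQCRHL, a retrocopy of a respiratory complex III subunit, was lowest at -2.26 ± 0.14, with 23.7% of its transcript in near-identical copy of UQCRH. FNDC10 (-1.86) and CCDC85B (-1.68) completed the 6.

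**Figure D2:**
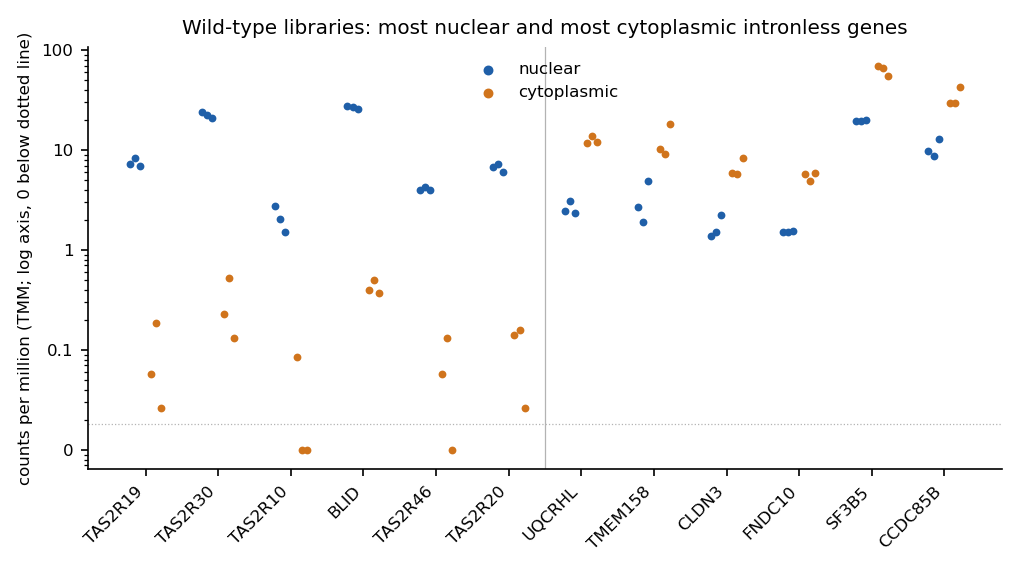
CPM (log axis, scaled over 30 libraries) of the 6 most nuclear and 6 most cytoplasmic intronless genes, with 1 point per wild-type library. Values of 0 are drawn below the dotted line. The nuclear and cytoplasmic points do not overlap for any of the 12 genes; for TAS2R30 they lie at 21.0 to 23.9 and at 0.133 to 0.529.

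Among the 12 genes with the highest level, 8 were called cytoplasmic. PCBP1 had a log2 ratio of -1.18 ± 0.11, SFN of -1.11 ± 0.10, RHOB of -1.05 ± 0.14, RRAGA of -0.87 ± 0.09 and RRS1 of -0.82 ± 0.16. TSPYL1 (-0.60) and JUNB (-0.74) were also lower in the nucleus. The call of JUNB was lost with DESeq2, RLE size factors and limma, and its ratio was -0.12 without the cytoplasmic library of passage 29. TSPYL1 (-0.04) and RRS1 (-0.29) lost theirs with limma on log2(TPM + 0.1). HEXIM1 (0.22, adjusted p = 0.0816 in edgeR), UTP3 (0.05), SOX4 (-0.25, adjusted p = 0.161) and HSPA1B (0.16, adjusted p = 0.722) did not pass the test. HEXIM1 did pass as nuclear with DESeq2 (0.33), RLE size factors (0.33) and limma on log2(TPM + 0.1) (0.78). UTP3 passed as nuclear with that limma fit (0.60), and SOX4 as cytoplasmic with no low-count filter (-0.38).

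A wild-type culture stood apart in several of these genes. HSPA1B had 605 and 539 nuclear CPM at passages 27 and 28 but 128 at passage 29, and 447, 561 and 134 in the cytoplasm. JUNB, a subunit of the AP-1 factor, moved the other way, with 38.0, 33.8 and 81.6 nuclear and 55.7, 54.5 and 146 cytoplasmic CPM. Without passage 29, the nested genes had 37 nuclear and 2 cytoplasmic calls of 48 and those outside introns 45 and 78 of 176.

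Other gene families were small, and their counts are given as a description beside the 39.6% nuclear and 37.3% cytoplasmic calls over all genes. All 3 C/EBP factors were called cytoplasmic, with CEBPD at -1.17 and CEBPA at -0.63. Of 5 immediate early and small GTPase genes 4 were cytoplasmic, among them RHOB and IER5 (-0.31). Of 5 Frizzled receptors 3 were cytoplasmic and none nuclear, and FZD1, FZD2 and FZD7 lay between -0.98 and -0.57. Of 4 claudins 3 were cytoplasmic and 1 nuclear. Of 9 forkhead genes 6 were nuclear, but the FOXD4L genes among them are near-identical copies of one another. The 10 retrocopies split into 6 nuclear and 3 cytoplasmic.

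The ratio of a nested gene was compared with that of its host. Where several genes enclosed it, the 1 with the highest mean TPM in the nuclear wild-type libraries was taken. TAS2R19, TAS2R30 and TAS2R46, for example, had 3 such genes each. The choice thus used values that also enter the host ratios and host changes, and other enclosing genes were not compared. For 42 nested genes the host, 1 of 32 genes, was tested as well. The median log2 ratio was 4.67 for the nested genes and 0.16 for the hosts, and 38 of 42 nested genes had a ratio above that of their host. EID3 stood at 5.34 and TXNRD1, the thioredoxin reductase gene around it, at -1.14. SUMO4, a retrocopy of a small ubiquitin-like modifier, stood at 5.13 and its host TAB2 at -0.16. TAS2R3 and TAS2R4 stood at 4.93 and 4.09 and their host SSBP1, a mitochondrial DNA-binding protein, at -0.55. PRH1, around 9 of the receptors, was nuclear itself at 3.84. Across the 42 genes the ratios of gene and host had a Spearman correlation of 0.55 (Pearson 0.50), a description over genes that share libraries and in part share hosts.

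Nested genes divided by the level of their host. Of the 40 tested nested genes whose host had a mean of 0.1 TPM or more, 35 were called nuclear and 0 cytoplasmic, with a median log2 ratio of 4.71. Of the 7 whose host was below 0.1 TPM, 1 was nuclear and 1 cytoplasmic, with a range from -4.89 to 0.46. This split was made after the values were seen, and it is given as a description.

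MARS2, the mitochondrial methionyl-tRNA synthetase, had a log2 ratio of 0.10 and a mean of 5.34 TPM, with a host at 0.00366 TPM. PIGM, an enzyme of GPI anchor synthesis, had a ratio of 0.46 and 2.26 TPM, with its host KCNJ10 at 0.0476 TPM. NSMCE3, a subunit of the SMC5/6 complex with a host at 0.0826 TPM, held 11.9, 11.02 and 10.3 nuclear and 22.6, 22.05 and 20.2 cytoplasmic CPM (-0.96). These 3 are from the 7 genes with a host below 0.1 TPM. Their ratios lay in the range of the genes outside introns. That range is wide, with 27 of 172 genes at a log2 ratio of 2 or more, so it separates little. By contrast TXNRD1 was at 99.8 TPM around EID3 at 2.77 TPM, and SSBP1 at 109 TPM around TAS2R3 at 1.84 TPM. Of the 40 genes, 5 were not called, among them CSNK2A3 with a ratio of -0.17 inside GALNT18 at 5.40 TPM, and SPIN4 with -0.07 inside LINC01278 at 3.34 TPM.

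**Figure D3:**
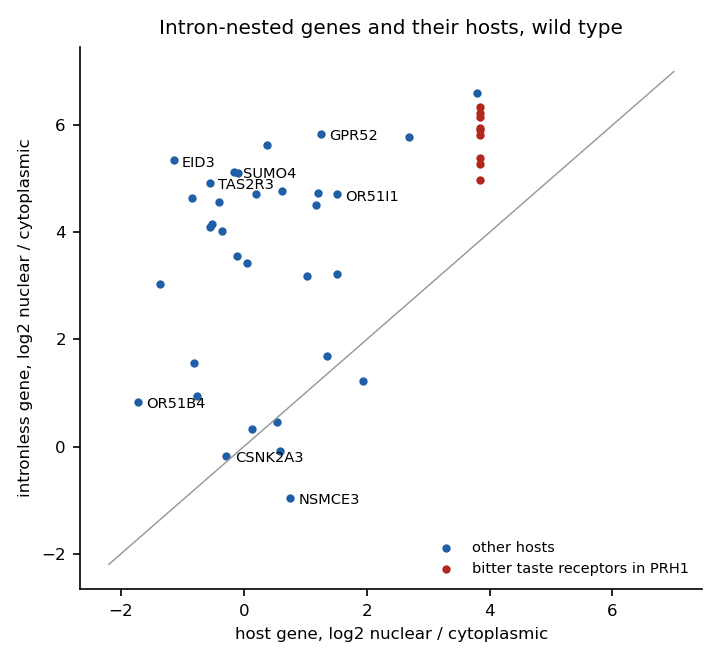
Log2 nuclear over cytoplasmic ratio in wild-type cells of each intron-nested gene (vertical axis) against its host (horizontal axis), with the line of equal ratios. Red points are bitter taste receptors in PRH1, whose host lies at 3.84. Of 42 genes, 38 lie above the line.

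Base composition varied with the ratio. Over the 88 genes outside introns with a mean of at least 1 TPM, the G and C content of the transcript had a Spearman correlation of -0.55 with the log2 ratio. It was -0.34 over all 172 genes outside introns, -0.41 over the 48 nested genes and -0.14 over 13607 protein-coding genes with introns. These are descriptions across genes, which share libraries and any bias of sequencing with base composition, and that part was not tested. The 29 most cytoplasmic of the 88 had a median of 59.2% G and C and a median transcript length of 2178 bases. The 29 most nuclear had 46.5% and 3540 bases. Length and ratio had a Spearman correlation of 0.37 over the 88 genes, but of 0.05 over all 172 and of -0.43 over the 48 nested genes.

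The knockout lines were then compared with wild type in each fraction, to see which intronless genes changed when Argonaute proteins were removed. The 4 comparisons share the same 3 wild-type libraries per fraction, so their values are given side by side and their overlap is no evidence. In the nucleus 48 intronless genes of 248 rose and 37 fell in AGO1, where 14.3% and 15.6% of all 18919 genes tested rose and fell (29.9% in all). In AGO2 there were 59 rises and 49 falls (background 20.2% and 19.9%, 40.2% in all), in AGO1/2 82 and 75 (32.9% and 34.7%, 67.6% in all) and in AGO1/2/3 74 and 73 (29.1% and 29.5%, 58.6% in all). As shares of 248 these counts were close to the background, with 19.4% rising in AGO1. With limma on log2(TPM + 0.1) the rising share of the called genes went from 56.5% to 17.2% in AGO1, from 54.6% to 13.5% in AGO2 and from 50.3% to 35.9% in AGO1/2/3.

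Nested genes and genes outside introns went in different directions. Of 45 nested genes, 2 rose and 19 fell in AGO1, 1 and 27 in AGO2, 3 and 32 in AGO1/2 and 2 and 34 in AGO1/2/3. Their median log2 changes were -0.54, -0.80, -1.25 and -1.0005. A gene can pass the count filter through its wild-type nuclear libraries alone, which favours falls. Among nested genes with a host at 0.1 TPM or more, the lowest changes were -7.54, -7.70, -5.52 and -8.37. The part of the filter in these counts was not tested. Of 166 genes outside introns, 38 rose and 12 fell in AGO1, 48 and 14 in AGO2, 67 and 32 in AGO1/2 and 61 and 28 in AGO1/2/3, with medians of 0.11, 0.14, 0.26 and 0.21. For the protein-coding genes with introns the medians were 0.00, 0.06, 0.15 and 0.12. With limma on log2(TPM + 0.1) the median of all genes was -0.25, -0.25, -0.12 and -0.25, against -0.03, -0.02, -0.06 and -0.03 with edgeR. The nested genes then had 0, 0, 4 and 1 rises and 24, 31, 31 and 33 falls, whereas those outside introns had 9, 10, 59 and 37 rises and 22, 23, 31 and 37 falls, so the excess of rises in AGO1, AGO2 and AGO1/2/3 was not found with that fit.

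**Figure D4:**
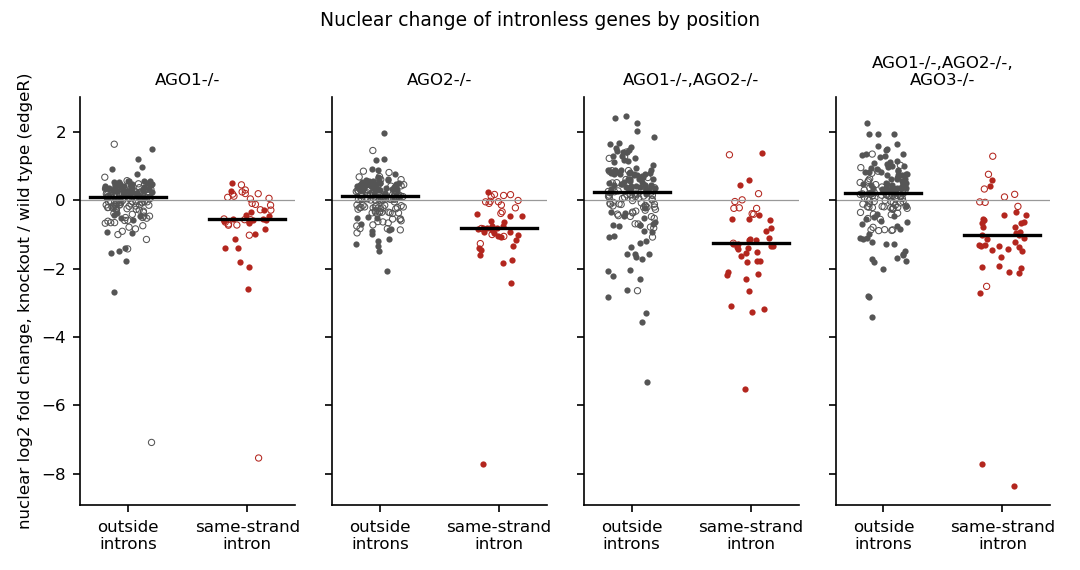
Log2 fold change of nuclear RNA, knockout over wild type (vertical axis), of intronless genes outside introns (grey) and in a same-strand intron (red), in 1 panel per knockout line. Filled points passed the test and bars are medians. The median of the nested genes lies at -0.54, -0.80, -1.25 and -1.0005, and that of the other genes at 0.11 to 0.26.

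Other measures moved in the same libraries. Transcripts annotated as retained introns took 7.88% to 8.25% of the reads of the nuclear wild-type libraries, 6.66% to 7.01% in AGO1, 5.98% to 6.10% in AGO2, 3.94% to 4.26% in AGO1/2 and 4.30% to 5.01% in AGO1/2/3. In the cytoplasm their share was 1.37% to 1.59% in every line. The log2 ratio of MALAT1 went from 3.83 in wild type to 2.80, 2.75, 2.12 and 2.48, and that of GAPDH from -1.20 to -0.78, -0.81, -0.20 and -0.61. That of NEAT1 went from 3.89 to 3.08, 3.03, 2.62 and 2.90. ACTB went from 0.67 to 0.65, 0.41, 1.16 and 1.08, and none of its differences from wild type passed the test. The part of these shifts in the nuclear change of nested genes was not tested.

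The nested genes were then divided by host level and set beside their hosts. Of 38 nested genes whose host was at 0.1 TPM or more, 29 fell and 1 rose in AGO1/2 (median -1.33), and of 6 with a host below that level, 3 fell and 2 rose (median -0.17). Of 40 nested genes with a tested host, 23 had a log2 change below that of their host in the nucleus of AGO1, 31 in AGO2, 34 in AGO1/2 and 31 in AGO1/2/3, so the genes were almost evenly divided in AGO1. In AGO1/2 the median log2 change was -1.30 for the nested genes and 0.12 for the hosts. EID3 fell by 1.09 while TXNRD1 rose by 0.87 on the log2 scale, and TAS2R4 fell by 1.77 while SSBP1 was at 0.17. PRH1 fell like the receptors inside it (-1.27). The medians of nested genes and hosts were -0.57 and -0.15 in AGO1, -0.83 and -0.17 in AGO2 and -1.11 and -0.05 in AGO1/2/3. Host totals are sums over all quantified transcripts of the host, and the RNA of its introns was not measured separately.

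Among the receptors, TAS2R30 had 27.3, 25.4 and 25.1 nuclear CPM in wild type (scaled within the nuclear libraries), 14.9, 13.0 and 11.1 in AGO1, 11.7, 10.7 and 8.37 in AGO2, 7.50, 7.95 and 7.19 in AGO1/2 and 9.66, 7.84 and 7.18 in AGO1/2/3. Every knockout library lay below every wild-type library. The log2 changes were -0.996, -1.34, -1.78 and -1.65, with SE 0.13 each and adjusted p from 8.5e-05 to 2.0e-08 (edgeR). In the cytoplasm it did not pass the test in any line, with changes of 0.98, 0.55, 0.45 and 0.04. Over the family, 11, 12, 12 and 12 of 14 receptors fell in the nucleus of AGO1, AGO2 and the lines AGO1/2 and AGO1/2/3 and none rose. Of all genes tested, 15.6%, 19.9%, 34.7% and 29.5% fell. Introns of PRH1 hold 9 of the receptors and those of SSBP1 hold 2, so the receptors are not separate observations. The count filter favours falls here too. In the cytoplasm none of the 8 tested receptors passed the test in any line.

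GPR52 had 8.94, 9.54 and 9.08 nuclear CPM in wild type, 3.10 to 4.04 in AGO1, 2.79 to 3.14 in AGO2, 1.32 to 2.34 in AGO1/2 and 2.04 to 2.24 in AGO1/2/3. Its changes of -1.38, -1.61, -2.29 and -2.11 (SE 0.16 each) were among the largest falls, and wild type stood clear of all 4 lines. OR51I1 fell by 1.94, 1.04, 2.14 and 1.92 on the log2 scale in the nucleus. EID3 went from 12.9 to 16.5 CPM in wild type to 6.09 to 6.99 in AGO1/2, and fell by 0.58, 0.61, 1.09 and 0.79. POU5F2, a POU domain factor whose exon overlaps FAM172A, fell by 1.24, 1.43, 2.10 and 1.88.

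Genes outside introns gave large changes in the 2 lines with several deletions. Epithelial markers and the mesenchymal marker VIM, which are no members, also moved there, and some moved in AGO1 or AGO2. In the nucleus of AGO1/2 and AGO1/2/3, VIM, the intermediate filament vimentin, rose by 3.98 and 3.73 on the log2 scale. The fibroblast marker COL1A1 did not rise there, with changes of -0.21 and -0.26, and COL1A2 was near 0 TPM. CDH1, the epithelial cadherin, fell by 2.18 and 1.49 and EPCAM fell by 0.56 and 0.38. The epithelial markers KRT8 (1.34 and 1.22) and KRT18 (1.19 and 1.0015) rose instead. In the nucleus of AGO1, CDH1 fell by 1.16 and VIM rose by 0.86, while EPCAM (-0.03) did not pass the test. In that of AGO2, EPCAM rose by 0.68 and VIM fell by 0.38, while CDH1 (0.04) did not pass. The part of these shifts in the changes below, those in AGO1 and AGO2 included, was not tested. SOX4, an HMG-box transcription factor, was at 326, 312 and 234 nuclear CPM in wild type, at 258 to 298 in AGO1 and at 227 to 258 in AGO2. It was at 23.9, 20.9 and 28.9 in AGO1/2 and at 24.3, 28.6 and 28.7 in AGO1/2/3. Only in the latter 2 lines did the libraries leave the wild-type range by a wide margin. The nuclear log2 change was -3.56 ± 0.14 in AGO1/2 and -3.42 in AGO1/2/3 (adjusted p = 3.2e-11 and 6.7e-11, edgeR), and -0.04 and -0.26 in AGO1 and AGO2, where it did not pass. In the cytoplasm the changes were -0.37 (adjusted p = 0.16), -0.71 (adjusted p = 0.01), -4.55 and -4.14.

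RHOB and SFN rose in the same lines. RHOB had 73.7, 60.7 and 112 nuclear CPM in wild type, 240, 236 and 236 in AGO1/2 and 230, 234 and 239 in AGO1/2/3, log2 changes of 1.53 and 1.52. It was slightly lower in AGO1 (-0.45, adjusted p = 0.031, edgeR) and at -0.14 in AGO2 (adjusted p = 0.48). SFN had 65.3, 60.1 and 83.0 in wild type, 96.8 to 106 in AGO1 and AGO2, 222, 223 and 208 in AGO1/2 and 158, 184 and 188 in AGO1/2/3. Its nuclear changes were 0.55, 0.51, 1.65 and 1.35, and its cytoplasmic changes 0.24 and 0.20, which did not pass, then 0.72 and 0.77.

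TMEM158 had 3.10, 2.17 and 5.80 nuclear CPM in wild type, 16.6, 19.3 and 17.1 in AGO1/2 and 16.3, 13.4 and 12.3 in AGO1/2/3. The nuclear changes of 2.27 ± 0.22 and 1.94 ± 0.23 and the cytoplasmic ones of 1.597 and 1.18 passed the test. SSTR5, a somatostatin receptor, rose by 1.45 and 1.597 in the nucleus and by 1.18 and 1.20 in the cytoplasm of the same lines. MGAT2, an enzyme of N-glycan synthesis, rose by 1.31 and 1.10 in the nucleus.

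**Figure D5:**
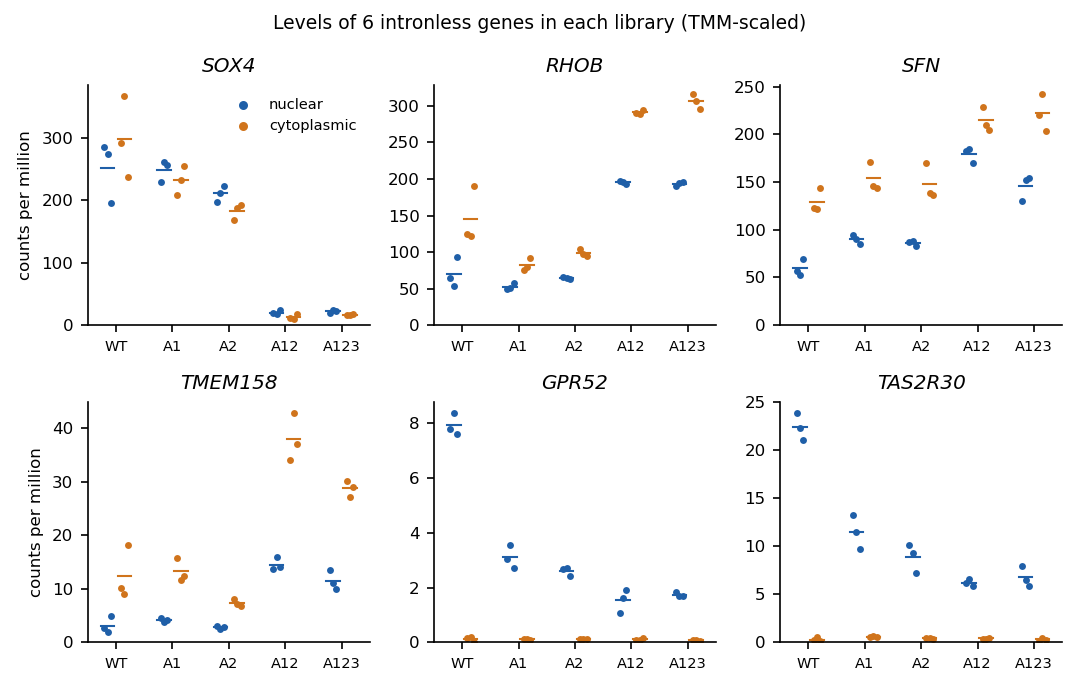
CPM (scaled over 30 libraries) of 6 intronless genes in each nuclear (blue) and cytoplasmic (orange) library, with lines at the means. WT is wild type and A1, A2, A12 and A123 are the AGO1, AGO2 and the lines AGO1/2 and AGO1/2/3 knockouts. SOX4 lies at 196 to 368 in wild type and at 9.75 to 23.6 in A12, while TAS2R30 changes in the nuclear libraries.

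Some genes differed from wild type in the single knockouts. EID2, an inhibitor of differentiation, had 7.85, 7.99 and 5.89 nuclear CPM in wild type and 14.4, 14.4 and 13.9 in AGO1 (0.97 ± 0.13), with 0.45 in AGO2. FZD1, a Wnt receptor, had 10.9, 8.66 and 10.4 in wild type, 4.90 to 5.68 in AGO1 and 16.7 to 17.8 in AGO2. It fell by 0.92 in AGO1 and rose by 0.78 in AGO2, and its cytoplasmic changes were -1.03 and 0.44. REP15, an effector of the GTPase RAB15, rose by 1.22 in the nucleus of AGO2 and did not pass the test in AGO1 (adjusted p = 0.99, edgeR).

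IER5, an immediate early gene, showed smaller changes than those above. It had 47.1, 45.04 and 47.6 nuclear CPM in wild type and 57.2 to 74.3 over the 12 knockout libraries, with log2 changes of 0.49, 0.34, 0.62 and 0.38. The most abundant genes were of the same size. PCBP1 changed by 0.53, 0.41, 0.89 and 0.61 and SF3B5 by 0.58, 0.55, 0.77 and 0.46 in the nucleus, next to GAPDH with 0.60, 0.60, 1.11 and 0.91. HEXIM1 changed by 0.35, 0.47, 0.50 and 0.47. The changes of IER5 with limma on log2(TPM + 0.1) were 0.26, 0.09, 0.60 and 0.16, and those in AGO2 and AGO1/2/3 no longer passed.

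A further 4 genes with large nuclear changes rest on few reads or on copies. GPR15, a homing receptor in an opposite-strand intron, had 49, 41 and 61 nuclear reads in wild type and 1, 2 and 1 in AGO1/2, and its fitted change of -5.96 depends on the prior count. ARL14 had 9, 15 and 26 reads in wild type and 3 in each AGO1/2 library. RAMACL had 10.2 to 12.5 estimated reads in wild type, and 31.6% of it is near-identical to RAMAC. KRTAP2-3, which rose by 1.22 in AGO1, shares 51% with KRTAP2-1.

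In the cytoplasm fewer intronless genes changed. In AGO1 6 of 223 rose and 20 fell, against 4.28% and 8.13% of all 17605 genes tested (12.4% in all). In AGO2 the counts were 10 and 20 (background 7.07% and 9.0%, 16.1% in all), in AGO1/2 42 and 63 (23.9% and 25.4%, 49.2% in all) and in AGO1/2/3 38 and 45 (18.6% and 20.0%, 38.7% in all). With limma on log2(TPM + 0.1) the rising share of the called genes went from 23.1%, 33.3%, 40.0% and 45.8% in the 4 lines to 6.45%, 3.33%, 14.6% and 20.4%. Of 30 nested genes 0, 2, 3 and 2 rose and 3, 2, 5 and 5 fell. JUNB had 47.7, 46.2 and 126 cytoplasmic CPM in wild type and 19.6 to 25.4 in AGO1/2 (-1.72 ± 0.31, adjusted p = 0.00036, edgeR). The highest wild-type value is again passage 29, and without that passage the change was -1.07 and still passed. DDX28, a mitochondrial RNA helicase, fell by 0.91 in AGO1/2 and 0.51 in AGO1/2/3, and 2 of the 3 C/EBP genes fell in each of these lines, CEBPD by 0.55 and 0.63 and CEBPA by 0.37 and 0.31.

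The last comparison asked whether the nuclear over cytoplasmic ratio itself differed between a knockout line and wild type, as an interaction of genotype and fraction. In AGO1 none of the 259 intronless genes had a higher ratio and 3 had a lower one (0.184% and 0.478% of all genes, 0.662% together). In AGO2 15 were higher and 9 lower (2.63% and 3.13%, 5.76% together), in AGO1/2 54 and 38 (19.6% and 17.0%, 36.5% together) and in AGO1/2/3 29 and 25 (11.7% and 11.1%, 22.7% together). At an unadjusted p of at most 0.05, 60 intronless genes differed in AGO1 by edgeR, and DESeq2 called 1 higher and 11 lower ratios there after adjustment. Within each line, the ratio was nuclear for 101 and cytoplasmic for 82 of the 259 in AGO1 (40.0% and 34.5% of all genes, 74.5% together). It was so for 108 and 72 in AGO2 (39.8% and 33.6%, 73.4% together), 99 and 71 in AGO1/2 (36.9% and 31.6%, 68.6% together) and 92 and 82 in AGO1/2/3 (36.1% and 34.1%, 70.2% together). With limma on log2(TPM + 0.1) the nuclear share of the called ratios went from 55.2%, 60.0%, 58.2% and 52.9% to 80.2%, 87.8%, 99.0% and 91.1%. The split of changed ratios moved too, since in AGO2 62.5% of them were higher, against 43.8% with RLE size factors, 45.8% with DESeq2 and 12.5% with that limma fit, and in AGO1/2 58.7% against 70.5% with limma. With the culture as a replicate block, 21 ratios were higher and 8 lower in AGO1, 60 and 12 in AGO2 and 57 and 27 in AGO1/2/3, so the direction of the AGO1 calls turned.

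Nested genes made up 19 of the 38 lower ratios in AGO1/2. Of the 48, 0 were higher and 2 lower in AGO1, 1 and 7 in AGO2, 2 and 19 in AGO1/2 and 2 and 11 in AGO1/2/3, with median differences of -0.65, -0.62, -1.38 and -0.96. Of 172 genes outside introns, 0, 12, 44 and 23 were higher and 0, 0, 11 and 9 lower, with medians of 0.20, 0.32, 0.25 and 0.22. With limma on log2(TPM + 0.1) the nested genes had 0, 0, 4 and 2 higher and 8, 20, 27 and 26 lower ratios, and those outside introns 0, 3, 92 and 30 higher and 0, 4, 14 and 15 lower ones. The ratio of nested genes stayed above 0 in every line, with medians of 3.13, 2.90, 2.24 and 2.68. TAS2R19 had the largest called fall, by 2.87 ± 0.53 in AGO1/2, from 8.34, 9.41 and 8.31 to 3.002, 3.58 and 3.20 nuclear CPM, while its cytoplasmic reads were 7 or fewer per wild-type library and 11 to 18 per AGO1/2 library. OR51I1 fell by 2.54 ± 0.47 in the same line, and DDX28 and CLDN3 rose by 0.97 each.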

How the data were processed

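The 30 RNA-seq libraries were grouped by genotype and fraction from the labels. The labels list 38 samples, and the 8 eCLIP samples were not analysed here. Reads were aligned with STAR 2.5.3a and transcripts quantified with Salmon 0.11.0, per the submitters' processing notes. The deposited files hold, for each transcript, estimated counts, which the authors did not normalize between libraries, and TPM, which the authors scaled by effective length within a library. Both were summed per gene, and counts were rounded after summing. Of 200401 transcripts, 196040 matched GENCODE release 44 by identifier without version, and the 4361 without a match held 2.23% to 4.01% of the reads. Gene positions are those of this release on hg38, which may not be the release used for the files.

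Tests used the quasi-likelihood method of edgeR 4.0.16 under R 4.3.3 (library scaling by TMM, filterByExpr at a min.count of 10, Benjamini-Hochberg adjusted p of at most 0.05 over all genes tested). All 30 libraries entered 1 fit for the nuclear over cytoplasmic ratio and its difference from wild type, and the 15 libraries of a fraction entered 1 fit for each knockout against wild type. Log2 values carry an approximate standard error (SE), computed as the absolute log2 value divided by the square root of the F statistic of the test. Levels per library are CPM on the TMM scale, with 3 libraries per group. The procedure was tested on simulated data before use. In wild type, deviations from group means correlated between the 2 fractions at 0.156, 0.148 and 0.402 for passages 27, 28 and 29. With the other passages the mean correlations were -0.0487, -0.043 and -0.25, so each same-passage value was the higher one. Passage 29 stood apart, so with 3 libraries these values do not settle whether passage numbers pair the fractions. The main fits used no block, so the tests of the ratio and of its difference ignore any such pairing.

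Copies were found with BLAST 2.17.0 (at least 95% identity over at least 50% of the transcript): 180 of the 885 genes have such a copy, and 46 of these were tested. The rule for named genes gave the 12 with the highest mean TPM, the 6 most nuclear and 6 most cytoplasmic in wild type, the 2 largest changes per direction, line and fraction, the 2 largest differences of the ratio, and list members that changed alike in 4 lines, where ranked genes needed non-overlapping libraries and a mean of at least 1 TPM over the libraries compared. A gene and a sequence are not reported here. The genes and lists were chosen with earlier results of these data known. Alternatives were DESeq2 1.42.0, RLE factors, other filters, limma 3.58.1 on log2(TPM + 1) and log2(TPM + 0.1), a replicate block, single libraries left out, members without exon overlap, and members with 1 exon in every release 44 transcript. Leaving out wild-type passage 29, the release 44 restriction and the division by host level were chosen after seeing the data. Python 3.11.15 and pandas 2.3.3 were used for sums and counts.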

Additional observations from a re-analysis of the deposited data

Results flagged for a closer look

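The difference of the nuclear over cytoplasmic ratio between a knockout line and wild type passed the edgeR interaction test for the following named genes, each with 3 libraries per group, and these differences are on the log2 scale. The bitter taste receptor TAS2R19 had a lower ratio in every line, with differences of -2.25 in AGO1, -2.03 in AGO2, -2.87 in AGO1/2 and -2.46 in AGO1/2/3, with 1 to 7 cytoplasmic reads per wild-type library. Without passage 29 the difference was -1.87 in AGO1 and -1.65 in AGO2, and neither passed the test. Both also no longer passed with only the groups compared, and without any of several single libraries. Among these were cytoplasmic passage 27 and nuclear passage 28 of wild type. TAS2R30 had a difference of -1.95 in AGO1. OR51I1, an olfactory receptor gene with lower levels in both passage 29 libraries, had -2.07 in AGO2, -2.54 in AGO1/2 and -2.36 in AGO1/2/3. With only the groups compared, TAS2R30 in AGO1 and OR51I1 in AGO2 no longer passed. Higher ratios were found in AGO2 for CEBPD (0.77) and RIOX1 (0.51), in AGO1/2 for DDX28 (0.97) and CLDN3 (0.97), and in AGO1/2/3 for FZD2 (0.79) and SOX4 (0.64). The difference of RIOX1 no longer passed in 15 alternatives, among them DESeq2, RLE size factors and both limma fits, that of SOX4 in 11 and that of CEBPD in 6, while no alternative ended the calls of DDX28, CLDN3 and FZD2. SOX4 fell in both fractions of AGO1/2/3, by 3.42 in the nucleus and 4.14 in the cytoplasm. The 4 lines were compared with the same wild-type libraries.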

How the results depend on the processing

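Of 301 recomputed counts of called intronless genes, 258 stayed within 1.5 times the value reported. With a mean count of at least 50 only 160 genes were tested, and 124 (wild type), 117 (AGO1), 113 (AGO2) and 111 (AGO1/2/3) were called for the nuclear over cytoplasmic ratio. The difference of the ratio was the least stable. For AGO1 its count of 3 became 12 with DESeq2, 6 with RLE factors, 10 and 35 with limma at 0.1 and 1 TPM added, 7 with a mean count of 50, 6 with no filter, 0 with only the groups compared and 6 without passage 29. For AGO2 its 24 became 50 with limma at 1 TPM added, 9 with no filter and 6 with only the groups compared. For AGO1/2 its 92 became 156 and 164 with limma and 61 without overlapping exons, and for AGO1/2/3 its 54 became 84 and 100 with limma and 33 with only the groups compared. With the culture as a replicate block these counts were 29, 72 and 84 for AGO1, AGO2 and AGO1/2/3, and the block moved no other count of calls by over 1.5 times. Within the knockout lines, correlations between same-passage fractions ranged from -0.027 to 0.212, and most were below 0.1. In the cytoplasm the counts became 10 (AGO1) and 10 (AGO2) with only the groups compared, 60 (AGO2) with both limma fits and 66 (AGO1/2) without overlapping exons. The cause was not tested, except where fewer genes or libraries entered. No paired analysis was possible because wild-type and knockout cultures share no passage number, so knockouts within a fraction could not be blocked.

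Leaving out 1 library at a time gave 176 to 197 calls for the wild-type ratio, 167 to 175, 165 to 173, 156 to 167 and 157 to 169 for the ratio in AGO1, AGO2 and the lines AGO1/2 and AGO1/2/3, and 1 to 9, 11 to 29, 81 to 96 and 38 to 58 for its difference. In the nucleus the ranges were 66 to 89, 92 to 119, 151 to 167 and 132 to 156, and in the cytoplasm 14 to 32, 17 to 29, 90 to 107 and 61 to 97.

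Of 2242 recomputed values of named genes, 160 no longer passed, 13 newly passed and 10 changed sign. The wild-type log2 ratio of HSPA1B ranged from -0.26 without cytoplasmic passage 29 to 0.60 without nuclear passage 29, with -0.18 and -0.037 without nuclear passages 27 and 28. That of UTP3 ranged from -0.054 without cytoplasmic passage 29 to 0.21 without nuclear passage 29, with -0.041 without nuclear passage 27 and -0.075 with no filter. That of SOX4 was 0.30 and 0.29 with the limma fits, and the nuclear change of MAGEF1 in AGO2 was -0.032 and -0.030 with the same fits. In wild type, limma on log2(TPM + 0.1), which changes test and scaling together, moved the nuclear share of the called ratios from 49.2% to 70.7%. Depth limits the cytoplasmic values of the nested genes, several of which had fewer than 10 reads in each wild-type library.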
